A study of Mus musculus with 6 samples.

Results

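The brush border is the carpet of microvilli on the apical face of absorptive and some secretory epithelial cells. Each microvillus holds a core of parallel actin filaments, which bundling proteins cross-link, a motor ties to the side membrane and linker proteins join to membrane proteins, while cadherins at the tips of neighboring microvilli adhere to each other and order the array. Stratified squamous epithelium of the esophagus carries no such border, whereas columnar surface and gland cells of the stomach bear short apical microvilli. The genes described here are 10 genes of this structure, chosen by name out of 34298 gene names on the arrays: the actin bundlers *Vil1*, *Espn* and *Pls1*, the filament-tip protein *Eps8* and its relative *Eps8l3*, the motor *Myo1a*, the membrane linker *Ezr*, the tip cadherins *Cdhr2* and *Cdhr5*, and the cadherin scaffold *Ush1c*. They are represented by 14 probes, with 1 probe for each of 6 genes and 2 probes for each of 4 genes, and all 10 genes were found.

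The 6 single-color Agilent mouse arrays were hybridized with RNA of passage 0 organoids. They comprise 3 esophagus and 3 stomach cultures, both tissues of each of mice 1, 2 and 4, and the labels mark all 6 as Control. Organoids were harvested on day 8 of culture, except those of the stomach of mouse 4, which were harvested on day 7. The study's methods name wild-type C57BL/6 mice, and the array labels give no genotype or age. Stomach organoids grew from corpus glands in medium with WNT3A- and R-spondin1-conditioned medium and gastrin, and esophageal organoids in medium without these but with forskolin, so tissue and medium cannot be told apart. Both media held EGF, noggin, FGF-10, N-acetylcysteine, nicotinamide, a TGF-β receptor kinase inhibitor and Y-27632, an inhibitor of the ROCK kinase that acts on actin and myosin. Of the non-control spots on an array, 45.5% to 51.1% read well above background, and no spot was saturated.

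The tissue labels fit the marker genes. All 10 columnar markers were higher in the stomach organoids, led by *Tff1*, *Gkn2* and *Krt8*, and 6 of 7 squamous markers were higher in the esophageal organoids, led by *Krt5*, *Krt14* and *Krt13*. Summed over each list, log2 values ran from 145.43 to 146.42 in the stomach and 62.4 to 66.95 in the esophagus for the columnar genes, and from 42.25 to 43.74 and 101.34 to 104.69 for the squamous genes. The other squamous gene, *Trp63*, was called higher in the stomach by its brightest probe (log2 difference of 1.22 stomach minus esophagus, adjusted p = 0.0249), although its other 3 probes were called higher in the esophagus. That call was lost without the stomach array of mouse 1 or 2 or the esophagus array of mouse 1 or 2, which left 0 squamous genes called toward the stomach. A log2 value here is the normalized intensity deposited by the authors, and all differences are stomach minus esophagus, so that positive values mean higher in the stomach.

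Of the 10 genes, 9 were higher in stomach organoids by their brightest probe and none was higher in esophageal organoids (limma, Benjamini-Hochberg adjusted p below 0.05 over all 55681 probes). Over all 34298 gene names the same rule called 7.70% higher in the stomach and 7.15% higher in the esophagus, and over genes well above background in a whole tissue it called 13.9% and 12.7%. The median log2 difference was 3.90 over the 10 genes, against -0.03 over all genes. By probe, 11 of 14 were called higher in the stomach and 0 higher in the esophagus, where 6.22% of all probes were called higher in the stomach and 5.94% higher in the esophagus. The 0 higher in the esophagus also held at an unadjusted p below 0.05 with a 1.5-fold change, which called 11 member probes higher in the stomach, against 8.85% of all probes. On 13 of 14 probes the lowest stomach array lay above the highest esophagus array, a separation that 13.4% of all probes measured on every array showed. With 3 arrays against 3 the exact two-sided permutation test cannot give a p below 0.1, and it gave 0.1 for each of these 13 probes. In these bulk samples, fewer cells of a type and less RNA per cell cannot be told apart.

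**Figure D1:**
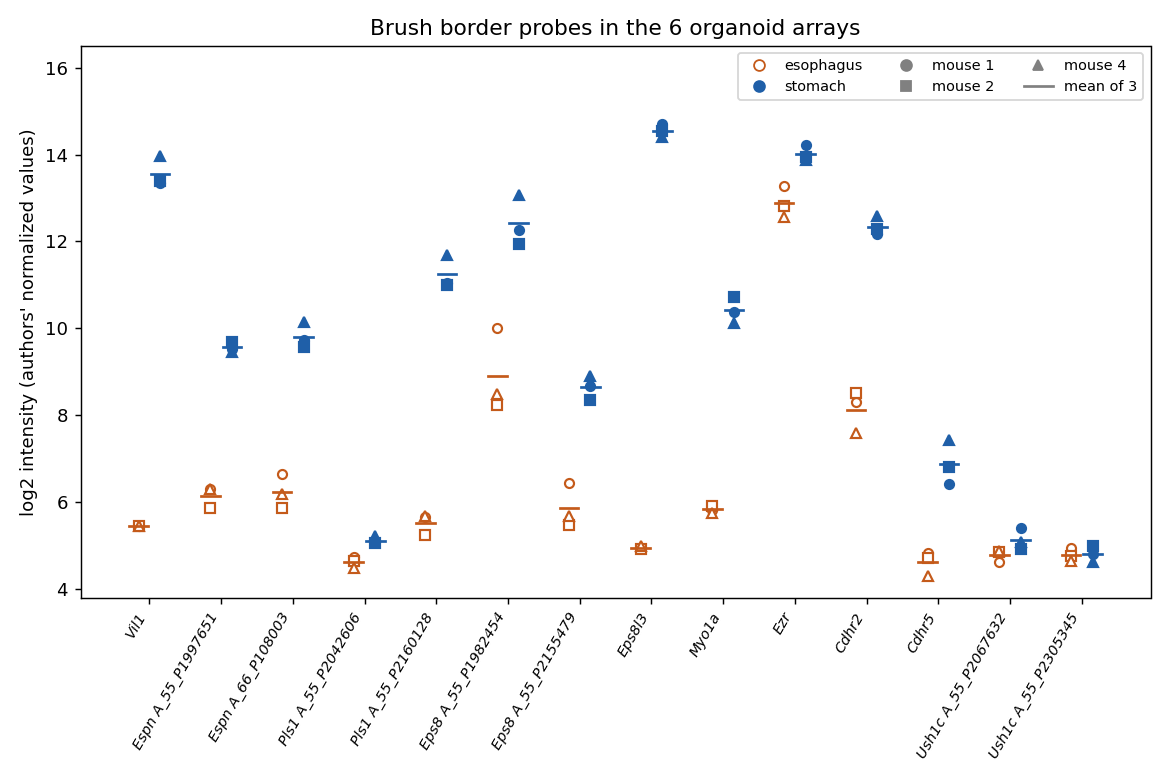
Log2 normalized intensity of the 14 probes on the 6 arrays, with open orange symbols for esophagus, filled blue symbols for stomach, a symbol shape for each mouse and a bar at the mean of 3 arrays. The stomach symbols lie above the esophagus symbols for every probe but *Ush1c* A_55_P2305345, and *Eps8l3* and *Vil1* were at background in the esophagus.

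The promoter windows of 4 members are shown because *Vil1* and *Eps8l3* were dim in the esophagus and bright in the stomach, and *Cdhr2* and *Cdhr5* are the paired tip cadherins. Each window runs from 250 bases before to 50 bases after the start site in RefSeq (assembly GRCm38.p6). RefSeq windows were found for 9 of the 10 members, with *Eps8* not among them. Capitals mark matches on either strand to 5 motifs, none of which contains another. The first is CAAAGTC, the core letters of sites for HNF4 receptors. The second is GTTAAT, the core of sites for the HNF1 factors, and the third is AGATAA, which factors of the GATA family can bind. The fourth is TTTATG, taken for the caudal factors CDX1 and CDX2, and the fifth is TATAAA, the letters of a TATA box. The windows of *Vil1* (chr1:74409134-74409433, plus strand), *Eps8l3* (chr3:107876980-107877279, plus strand), *Cdhr2* (chr13:54701213-54701512, plus strand) and *Cdhr5* (chr7:141276737-141277036, minus strand) read as follows.
Vil1: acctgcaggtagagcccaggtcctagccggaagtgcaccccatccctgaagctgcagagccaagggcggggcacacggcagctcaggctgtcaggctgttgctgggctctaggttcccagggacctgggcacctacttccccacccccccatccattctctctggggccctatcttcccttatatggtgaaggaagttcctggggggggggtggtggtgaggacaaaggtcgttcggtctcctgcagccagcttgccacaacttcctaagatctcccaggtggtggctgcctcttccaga
Eps8l3: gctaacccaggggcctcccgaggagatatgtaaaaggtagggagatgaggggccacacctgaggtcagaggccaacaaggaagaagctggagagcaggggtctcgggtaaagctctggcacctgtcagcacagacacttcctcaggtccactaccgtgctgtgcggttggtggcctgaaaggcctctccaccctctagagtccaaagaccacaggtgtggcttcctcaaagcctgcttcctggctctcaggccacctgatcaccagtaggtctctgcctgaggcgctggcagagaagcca
Cdhr2: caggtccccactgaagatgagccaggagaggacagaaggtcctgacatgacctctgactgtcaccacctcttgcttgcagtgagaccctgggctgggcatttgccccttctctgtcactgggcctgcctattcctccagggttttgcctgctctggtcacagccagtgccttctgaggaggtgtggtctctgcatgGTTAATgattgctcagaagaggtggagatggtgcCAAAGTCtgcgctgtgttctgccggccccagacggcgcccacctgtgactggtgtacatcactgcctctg
Cdhr5: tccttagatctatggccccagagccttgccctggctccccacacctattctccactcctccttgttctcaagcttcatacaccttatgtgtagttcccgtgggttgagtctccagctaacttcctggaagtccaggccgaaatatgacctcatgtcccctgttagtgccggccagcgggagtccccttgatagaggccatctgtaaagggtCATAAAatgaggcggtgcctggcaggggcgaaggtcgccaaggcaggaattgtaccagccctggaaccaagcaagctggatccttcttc

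*Cdhr2* held the HNF1 core at -54 to -49 and the HNF4 letters at -20 to -14 from the start, and *Cdhr5* held the CDX letters on the opposite strand at -39 to -34. The *Vil1* and *Eps8l3* windows held none of the 5 motifs. Among 11 windows of the 9 members, 1 held the HNF4 letters, 1 the HNF1 core, 2 the CDX letters and 0 the GATA or TATA letters. Of all 32851 windows of this length, 4.44% held the HNF4 letters, 7.1% the HNF1 core, 11.9% the CDX letters, 11.2% the GATA letters and 13.6% the TATA letters. These matches are letters in a window and not measured binding.

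Among the actin bundlers, *Vil1* encodes villin, which bundles and severs filaments of the microvillus core. Its probe (mm9 chr1:74481982-74482041) read 13.34, 13.38 and 13.97 in the stomach arrays of mice 1, 2 and 4, and 5.44, 5.44 and 5.46 in the esophagus arrays. The groups were separated by 7.88 on the log2 scale, and the esophagus values were not well above background on any array. In the stomach *Vil1* was higher by at least 278-fold (log2 difference 8.12, 95% interval 7.66 to 8.57, adjusted p = 2.53e-07).

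*Espn* encodes espin, a bundler that lengthens microvilli. Its brightest probe read 9.72, 9.58 and 10.14 in the stomach and 6.65, 5.86 and 6.18 in the esophagus of mice 1, 2 and 4, with the difference 3.58 (SE 0.24, adjusted p = 5.48e-05). The second probe gave 3.41 (SE 0.17, adjusted p = 1.04e-05), and both were well above background on all 6 arrays. These probes overlap on mm9 chr4 (151495188-151495247 and 151495230-151495289), and share 18 of 60 bases, ggggagatccctaagtaa, so they are not independent readings.

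*Pls1* encodes plastin 1, or fimbrin, the small core bundler. Its brightest probe (A_55_P2160128) read 11.05, 10.99 and 11.68 in the stomach and 5.66, 5.24 and 5.67 in the esophagus, where it was well above background on 1 of 3 arrays. The stomach arrays lay 5.33 above the highest esophagus array, and the difference was 5.72 (SE 0.23, adjusted p = 2.68e-06). The second *Pls1* probe (A_55_P2042606), designed to another transcript, stayed near background on all 6 arrays (none well above it), so no fold is given for it (adjusted p = 0.0752).

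At filament tips, *Eps8* encodes an actin capping and bundling protein. Its brighter probe read 12.26, 11.94 and 13.06 in the stomach and 10, 8.23 and 8.49 in the esophagus, and the esophagus array of mouse 1 was the highest of its group on both *Eps8* probes. The difference was 3.51 (SE 0.48, adjusted p = 0.00246) on this probe and 2.78 (SE 0.27, adjusted p = 0.000387) on the other. *Eps8l3*, a relative of *Eps8*, read 14.70, 14.54 and 14.40 in the stomach and 4.95, 4.92 and 4.99 in the esophagus. No esophagus array was well above background, and the stomach exceeded the esophagus by at least 772-fold (log2 difference 9.59, adjusted p = 3.77e-08).

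The motor gene *Myo1a* encodes the class I myosin that tethers the core bundle to the microvillar membrane. It read 10.37, 10.73 and 10.13 in the stomach and 5.81, 5.92 and 5.75 in the esophagus, and was well above background on all 6 arrays. The groups were separated by 4.22, and the difference was 4.59 (SE 0.18, adjusted p = 2.71e-06). *Ezr*, which encodes ezrin, the linker between filaments and membrane proteins, read 14.21, 13.95 and 13.88 in the stomach and 13.28, 12.81 and 12.56 in the esophagus. The groups did not overlap, but the gap between them was 0.61 and the fold was 2.19 (log2 difference 1.13, SE 0.21, adjusted p = 0.0114). *Ezr* was the member whose call was lost under other settings: its adjusted p was 0.061 without the stomach array of mouse 1 and 0.129 with 75th percentile scaling, which also moved the median of all probes from -0.02 to -0.19.

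In the tip adhesion complex, *Cdhr2* encodes one of the pair of cadherins that join neighboring microvilli. It read 12.17, 12.28 and 12.58 in the stomach and 8.3, 8.51 and 7.58 in the esophagus, all well above background. *Cdhr2* was 18.5-fold higher in the stomach (log2 difference 4.21, SE 0.26, adjusted p = 3e-05). *Cdhr5*, its partner cadherin, read 6.41, 6.81 and 7.44 in the stomach and 4.82, 4.72 and 4.3 in the esophagus, where no array was well above background. On the main values the stomach level was higher by at least 4.53-fold (log2 difference 2.27, adjusted p = 0.00136). That bound does not extend to the other settings. Under these the log2 difference ranged from 1.39 with mean intensities and a normexp offset of 50 to 4.62 with 75th percentile scaling. *Ush1c*, the scaffold also called harmonin, has 2 probes, neither of them well above background on any of the 6 arrays, so its level could not be compared (adjusted p = 0.292 for the brighter probe). The arrays therefore bear on 9 of the 10 genes, and 5 of these were well above background on all 6 arrays by their brightest probe, with log2 differences from 1.13 to 4.59.

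**Figure D2:**
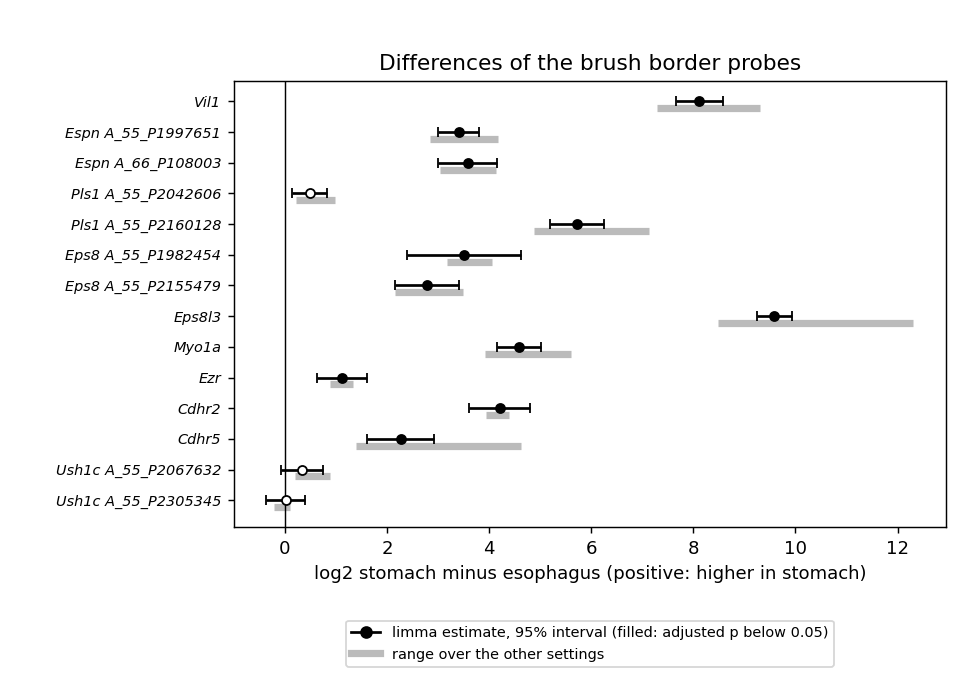
Log2 difference, stomach minus esophagus, of each of the 14 probes, with the limma estimate and its 95% interval as black points (filled where the adjusted p was below 0.05) and the range over the other settings as gray bars. Every filled point lies to the right of 0, from 1.13 for *Ezr* to 9.59 for *Eps8l3*.

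**Figure D3:**
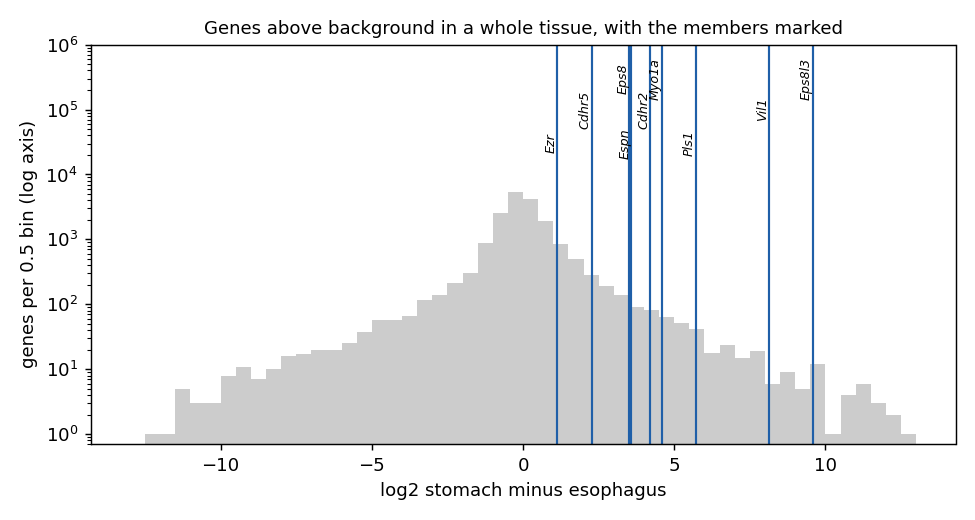
Number of genes (log axis) in bins of log2 difference, stomach minus esophagus, over genes well above background in a whole tissue, with blue lines at the members that passed that filter. The lines run from 1.13 for *Ezr* to 9.59 for *Eps8l3*, and the median of the plotted genes was -0.06. *Vil1*, *Eps8l3*, *Cdhr5* and *Pls1* passed the filter through their stomach arrays, so their side of 0 is no result.

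Within each mouse, the median log2 difference over the 10 genes was 3.46 in mouse 1, 3.75 in mouse 2 and 4.47 in mouse 4. The stomach array was the higher of the pair on 13, 14 and 13 of 14 probes, and the exceptions in mice 1 and 4 were both *Ush1c* A_55_P2305345. In mouse 4 the stomach organoids had been harvested 1 day earlier and the esophagus array was on another slide, and their part in the larger median was not tested. Without the stomach array of mouse 4 or without its esophagus array, 11 of 14 probes were still called higher in the stomach.

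The partners of the adhesion complex outside the 10 genes were dim in the esophagus, none of the 3 being well above background on any esophagus array. *Calml4*, a light chain of the complex's motor, read 10.26, 10.83 and 10.19 in the stomach, a difference of at least 51.9-fold (adjusted p = 1.99e-06). *Anks4b*, an adaptor, was at least 4.66-fold higher (adjusted p = 0.000308). *Myo7b*, the motor that carries the complex to the tip, read 5.49, 5.71 and 7.46 in the stomach and 4.38, 4.57 and 4.56 in the esophagus, and did not pass the test (adjusted p = 0.0544). The stomach array of mouse 4 was its highest, and without that array *Myo7b* passed (adjusted p = 0.00633), as it did with mice as the replicate block (adjusted p = 0.0423). Of these 3 partners, 2 were called higher in the stomach.

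Relatives of the members differed in both directions. The fixed lists held 88 other genes of the brush border and its regulators, all on the arrays. Of these, 29 were called toward the stomach, 15 toward the esophagus and 44 were not called, with a median log2 difference of 0.31. Counted without the stomach array of mouse 1, 9 were called toward the esophagus. Over all genes the shares called were 7.70% toward the stomach and 7.15% toward the esophagus, with a median of -0.03. Over genes well above background in a whole tissue they were 13.9% and 12.7%. These shares are the background for the list counts that follow. Among 13 other bundlers and tip proteins, 2 rose in the stomach, *Lcp1* and *Baiap2l1*, and 3 were higher in the esophagus, *Fscn1*, *Pls3* and *Baiap2*.

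*Lcp1*, the plastin best known from blood cells, read 11.45, 11.57 and 11.97 in the stomach and was not well above background in the esophagus, a difference of at least 114-fold (adjusted p = 3.62e-07). *Pls3*, the widely expressed plastin, ran the other way, at 11.97, 11.83 and 11.63 in the stomach against 14.08, 13.55 and 13.24 in the esophagus (log2 difference -1.81, adjusted p = 0.00162). *Fscn1*, the bundler of filopodia, showed the opposite, with the esophagus higher by at least 142-fold (adjusted p = 1.36e-07). *Baiap2l1*, which bends membrane over growing bundles, read 10.71, 10.71 and 10.7 in the stomach and 8.67, 9.02 and 8.6 in the esophagus (adjusted p = 0.000154). *Baiap2*, its relative, differed by -0.93 (adjusted p = 0.0139) and was not called without the stomach array of mouse 1 or the esophagus array of mouse 2 (adjusted p = 0.0722 and 0.0544), nor with 75th percentile scaling (0.0785). The other *Baiap2* probe was not called. In the *Eps8* family, *Eps8l1* and *Eps8l2* were well above background on all 6 arrays and their differences were 0.25 (SE 0.44, adjusted p = 0.814) and 0.37 (SE 0.43, adjusted p = 0.687).

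Of *Ezr* and its 2 close relatives, *Ezr* was the one higher in the stomach. *Msn*, encoding moesin, read 10.83, 10.69 and 11.32 in the stomach and 14.5, 13.62 and 13.39 in the esophagus (log2 difference -2.89, adjusted p = 0.000636), and *Rdx*, encoding radixin, differed by -2.2 (adjusted p = 0.000141). The ezrin-binding scaffold *Slc9a3r1* was also higher in the esophagus (-1.03, adjusted p = 0.0126), a call lost without the stomach array of mouse 1 or of mouse 2 (adjusted p = 0.0666 and 0.0623), whereas its paralog *Slc9a3r2* was higher in the stomach (2.09, adjusted p = 6.84e-05). *Stk10*, a kinase that phosphorylates these linkers, was higher in the stomach by 2.52 (adjusted p = 0.00121), and *Podxl*, a membrane sialomucin that ezrin binds, by at least 5.5-fold (adjusted p = 0.000299). For *Slc9a3r2* and for *Podxl*, the other probe of the gene was not called. Of this list of 11, 4 were called toward each tissue, and 3 toward the stomach with 2 toward the esophagus without the stomach array of mouse 1 or of mouse 2.

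The villin and gelsolin family split as well, with 3 of 7 called toward each tissue. *Vill*, villin-like, read 14.2, 14.08 and 13.18 in the stomach and 7.15, 5.61 and 5.9 in the esophagus (log2 difference 7.6, adjusted p = 1.98e-05). *Avil*, advillin, had a stomach level higher by at least 31.9-fold (adjusted p = 2.6e-05). *Gsn*, gelsolin, was higher in the stomach by 1.3 (adjusted p = 0.0139), a call lost without the stomach array of mouse 1 or of mouse 2 (adjusted p = 0.0682 and 0.0551) and with 75th percentile scaling (0.123). Toward the esophagus, the severing protein *Scin* was higher by at least 4.59-fold (adjusted p = 7.11e-05), the capping protein *Capg* differed by -1.63 (adjusted p = 0.000459) and the membrane-anchoring *Svil* by -1.34 (adjusted p = 0.00296). Of the 3 *Svil* probes, 1 was called. Among 11 myosins of classes I, V and VI, 4 were called toward the stomach and 2 toward the esophagus, a count of 2 that became 1 without the stomach array of mouse 1 or 2 or the esophagus array of mouse 1 or 4. *Myo5c* differed by 3.05 (adjusted p = 5.76e-05), *Myo1d* by 2.61 (adjusted p = 3.61e-05) and *Myo1c* by 1.56 (adjusted p = 0.000564) toward the stomach. The other *Myo1c* probe was not called. *Myo5a* differed by -2.74 (adjusted p = 0.00199) toward the esophagus.

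**Figure D4:**
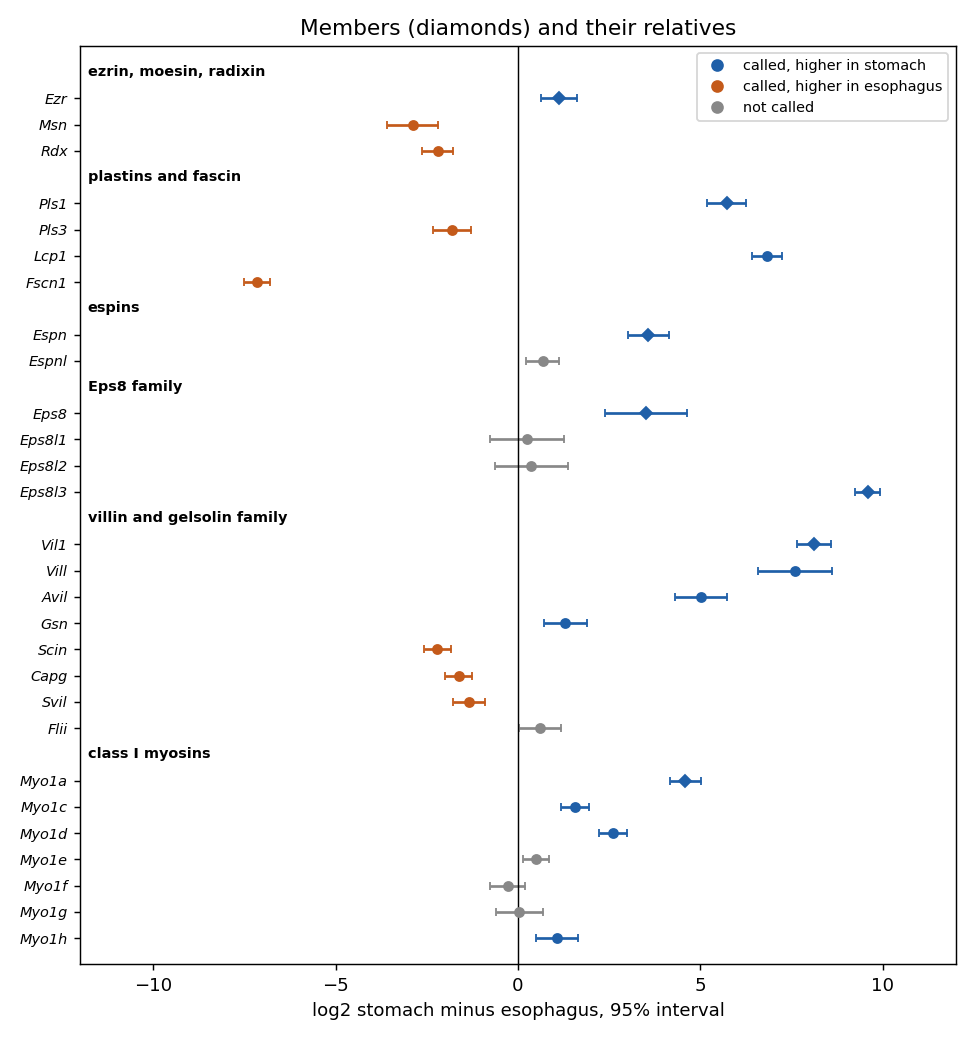
Log2 difference, stomach minus esophagus, with 95% intervals for members (diamonds) and their relatives (circles) by family, in blue where called higher in the stomach, orange where called higher in the esophagus and gray where not called. *Ezr* lies to the right of 0 while *Msn* and *Rdx* lie to the left, and *Pls1* and *Lcp1* lie to the right while *Pls3* and *Fscn1* lie to the left.

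In the terminal web, the actin and spectrin mesh under the microvilli, 2 of 8 genes were higher in the stomach: the nonmuscle myosin heavy chain *Myh14* by 3.07 (adjusted p = 0.00295) and the spectrin *Sptbn1* by 1.6 (adjusted p = 0.00018). The other *Myh14* probe was not called. Of 6 apical trafficking genes, *Stxbp2* was higher in the stomach by 1.19 (adjusted p = 0.00925, but 0.0504 without the stomach array of mouse 2 and 0.121 with 75th percentile scaling) and 5 were not called. Without the esophagus array of mouse 4, 1 of these 6 was called toward the esophagus. The other *Stxbp2* probe was not called. Of 19 intestinal brush border hydrolases, transporters and lipid-handling genes, 3 were called toward each tissue and 13 were not called (1 toward the esophagus without the stomach array of mouse 1 or of mouse 2), and 8 were dim throughout (well above background on no array), among them *Lct*, *Sis* and *Mgam*, which digest disaccharides and starch. *Anpep*, an aminopeptidase of the apical membrane, read 13.69, 14.33 and 13.1 in the stomach and 8.16, 5.89 and 6.21 in the esophagus (log2 difference 6.95, adjusted p = 0.000177). For *Apoa1* the stomach was higher by at least 40.4-fold, and for *Mep1b* by at least 8.1-fold. *Dpp4*, another apical peptidase, differed by -1.58 toward the esophagus (adjusted p = 0.0106), a call lost without the stomach array of mouse 1 or of mouse 2 (adjusted p = 0.0561 and 0.0557). *Enpep* was called toward the esophagus (adjusted p = 0.0454) with no array well above background, and so has no fold. The *Enpep* call was lost with mice as the replicate block (adjusted p = 0.0976) and without any 1 of the 6 arrays. *Lct*, *Sis* and *Mgam* are named here after their values had been seen.

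Of 10 transcription factors of columnar and intestinal epithelium, 8 were called toward the stomach and 0 toward the esophagus. *Hnf4a*, a nuclear receptor of gut and liver epithelium, read 14.79, 14.39 and 14.86 in the stomach and was not well above background in the esophagus, a difference of at least 963-fold (adjusted p = 8.28e-08). *Gata4* was at least 255-fold (adjusted p = 1.05e-06) and *Foxa2* at least 182-fold higher (adjusted p = 2.93e-07). The factor *Cdx1* stayed at background on all 6 arrays. The arrays measure RNA of these factors and not their binding.

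Markers of other cell types were read beside these results, with *Cdx2*, *Cdx1* and several hydrolases standing in more than one list. None of 9 tuft cell markers was called, and 5 of them, including *Trpm5*, *Pou2f3* and *Il25*, stayed at background on all 6 arrays. *Chat* and *Ptgs1*, also on that list, were well above background on all 6, with differences of 0.75 (adjusted p = 0.0741; groups not overlapping) and -0.86 (adjusted p = 0.53; groups overlapping). The tuft list had 1 call toward the stomach from mean intensities with a normexp offset of 16, and 1 toward the esophagus without the esophagus array of mouse 1. Of 7 enterocyte markers, 1 was higher in the stomach, *Cdx2*, and without the esophagus array of mouse 1 another, *Fabp2*, was called toward the esophagus (adjusted p = 0.00797). Of 7 parietal cell markers, 4 were higher in the stomach, *Kcnq1* (log2 difference 7.78), *Aqp4* (5.12), *Esrrg* (at least 7-fold, adjusted p = 0.000387) and the proton pump subunit *Atp4a* (at least 1.99-fold, adjusted p = 0.0177). The other pump subunit, *Atp4b*, stayed at background on all 6 arrays, and both subunits are named after their values had been seen. Summed over the parietal list, log2 values ran from 52.15 to 53.57 in the stomach and 34.79 to 35.98 in the esophagus. No marker of 8 for fibroblasts and smooth muscle, of 6 for enteroendocrine cells or of 3 for endothelial cells was called. Of 6 immune markers, *Itgam* alone was higher in the stomach by its brightest probe (2.62, adjusted p = 0.000662), and 1 of its 3 probes was called. Summed log2 values of the immune list ran from 46.01 to 48.44 in the stomach and 44.18 to 47.89 in the esophagus. *Ptprc* and *Adgre1* stayed at background on all 6 arrays. *Cd68* and *Cd3e* were well above background on all 6 and were not called (differences of -1.63, adjusted p = 0.211, and 0.5, adjusted p = 0.299), and without the esophagus array of mouse 4 the immune list had 1 call toward the esophagus. With trend and robust variances, the endothelial list had 1 call toward the stomach. The part of these cell types in the differences of the members was not tested.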

How the data were processed

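RNA of 6 organoid cultures was hybridized to single-color Agilent mouse arrays, which the authors read with Feature Extraction 11.5.1.1. For each spot the scanner output they deposited gives raw intensity, local background intensity and flags. The log2 values that the authors deposited had been corrected for background and brought to a common distribution across arrays, and normexp with an offset of 15 on median intensities followed by quantile normalization matched it with a median absolute difference of 0.00433. Cells without a value there are spots marked as outliers. These log2 values, averaged per probe, are the main values, and values rebuilt from scanner intensities are an alternative. Coordinates are those of the files (mm9).

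In R 4.3.3 with limma 3.58.1, stomach and esophagus were compared by lmFit and eBayes with no block term. P-values of the 55681 probes were adjusted together by Benjamini-Hochberg, and the brightest probe stood for a gene. Where no array of a tissue was well above background, the fold is a bound, with each dim array set to the higher of its own value and the lowest value well above background on that array. Such a bound concerns the mean difference of the main values. It is not the lower end of an interval and can be passed under other settings. The fit was tested on simulated data. Pairs come from the same animals. For the same mouse, the departures of the 2 arrays from the tissue mean correlated across probes with r = 0.025, 0.012 and -0.008, and the mouse block was an alternative. The other alternatives were normexp offsets of 16 and 50, each on mean instead of median intensities, 75th percentile scaling of the software's signal, a filter on dim probes, trend and robust variances, the slide as a block, each array left out, averaged or any probes, and an unadjusted p below 0.05 with a 1.5-fold change, as in the study's methods, which do not state an adjustment.

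Named genes are every probe of the members, the called genes with the 3 largest changes in each direction of each other list, and the relatives fixed by name. Some list genes are counted but not reported here. The members and lists were chosen with earlier results of these data known. The number of arrays limits the precision.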

Additional observations from a re-analysis of the deposited data

How the results depend on the processing

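Over the 14 member probes, 176 of 179 values under the alternatives stayed on their side of the threshold, 2 lost the call and 1 gained it. No called difference turned direction, and the uncalled *Ush1c* A_55_P2305345 ran from -0.22 to 0.11. The losses were both *Ezr*, at 0.88 with 75th percentile scaling and 1.03 without the stomach array of mouse 1, and the gain was the dim *Pls1* probe with trend and robust variances. The 75th percentile scaling moved the median of all probes to -0.19, from -0.02. Member probes called higher in the stomach numbered 10 to 11 with arrays left out in turn and 10 to 12 under the other alternatives, with 0 higher in the esophagus throughout. With mice as the replicate block, 11 member probes were called, and 31 other brush border genes were called toward the stomach and 14 toward the esophagus. The pairing changed no member call; among the named relatives *Myo7b* passed under it (adjusted p = 0.0423) and *Enpep* no longer did (adjusted p = 0.0976). With the slide as a block, which leaves the esophagus array of mouse 4 without influence, 11 member probes were called. Over the other brush border genes, left-out arrays gave 25 to 31 called toward the stomach and 9 to 16 toward the esophagus. Over the cell type lists, left-out arrays gave 15 to 17 and 6 to 8. Signal over background limits *Ush1c*, the second *Pls1* probe and the esophagus levels of *Vil1*, *Eps8l3* and *Cdhr5*, for which the folds are bounds on the main values.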
